A study of Mus musculus with 18 samples.

Results

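The 40 genes described here encode the machinery that puts peptides on the cell surface for T cells. They were chosen by name from the table of liver gene expression, as every gene whose symbol begins with H2- (25 genes) together with B2m, Tap1, Tap2, Tapbp, Tapbpl, Psmb8, Psmb9, Psmb10, Psme1, Psme2, Erap1, Nlrc5, Ciita, Cd74 and Ifi30, and they are 40 of 15052 genes listed. The rule uses names alone, but it was written with earlier results of these data known. By role, 18 are class I chains or pseudogenes of that family, B2m included, 8 belong to class II, 5 to the immunoproteasome and its activator, and 5 to peptide loading. The transactivators Nlrc5 and Ciita, the thiol reductase gene Ifi30 and the pseudogene H2-M6-ps complete the set. H2-Oa and H2-Ea have no line among them and are not analysed here.

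RNA was sequenced from the liver of 18 mice labelled female, aged 10 to 12 weeks, in a chronic-plus-binge ethanol model. WT mice were C57BL/6J, and Apoe KO mice carry a whole-body deletion of Apoe, the gene for apolipoprotein E. After 5 days of acclimation, EtOH-fed mice were kept for 10 days on liquid food holding 5% (v/v) ethanol, were given 5 g/kg ethanol by gavage on day 11, and were killed 9 h later. Pair-fed mice took a control diet and received 9 g/kg dextrin-maltose instead. WT mice numbered 4 when pair-fed and 5 when EtOH-fed, and Apoe KO mice 5 when pair-fed and 4 when EtOH-fed, the latter with the numbers 1, 2, 4 and 5. Each mouse is 1 library, and nothing in the labels pairs mice between groups.

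Class I molecules are a heavy chain (H2-K1, H2-D1 and the nonclassical H2-Q, H2-T and H2-M genes) bound to beta-2 microglobulin, and most nucleated cells, hepatocytes included, carry them. Their peptides are cut by the proteasome, in which interferon-induced subunits (Psmb8, Psmb9, Psmb10) can replace the standard ones, are carried into the endoplasmic reticulum by TAP, and are trimmed by ERAP1. Class II molecules, such as that of H2-Aa with H2-Ab1, are made mainly by dendritic cells, B cells and macrophages, Kupffer cells among them. The invariant chain, product of Cd74, occupies their groove until it is degraded, and H2-DM then helps to load peptides taken up from outside the cell. CIITA drives transcription of class II and NLRC5 that of class I.

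Apoe was measured first, as a check of the genotypes. Its value, in the scaled units defined next, lay between 611230 and 798431 in the WT libraries and between 8586 and 108651 in the Apoe KO libraries, so that the genotypes did not overlap. The highest Apoe KO value was that of pair-fed Apoe KO mouse 4, where the rest of its group had 8586 to 35484. This mouse was also the highest of its group for Cd74, H2-Aa, H2-Ab1 and H2-Eb1, and the reason was not tested. The deposited values are read counts brought to almost the same total, 32267493 to 32292618 units per mouse, and then rounded. Low values step in whole reads in 11 mice, where 1 read is worth 1.11 to 5.77 units and an estimated 5600000 to 29100000 reads fell on genes, while in the other 7 mice a read is worth about 1 unit or less. Such steps were seen in 4 of 4 pair-fed WT, 3 of 5 pair-fed Apoe KO, 1 of 5 EtOH-fed WT and 3 of 4 EtOH-fed Apoe KO mice. A library labelled female, EtOH-fed Apoe KO mouse 1, held 826 units of Xist against 15227 to 30379 in the other 17 mice, with Ddx3y at 1077 against 2 to 118. Counts over the 40 genes and over the other gene lists, marker sums and within-group correlations that use this mouse are therefore also given without it. The summed level of 6 hepatocyte markers (Alb, Ttr, Apoa1, Serpina1a, Fgb, Cps1) lay between 2096019 and 3850505 units in every library.

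The 5 comparisons were ethanol against pair-feeding within each genotype, Apoe KO against WT within each diet, and the interaction, which is the ethanol response of Apoe KO mice minus that of WT mice. They share groups, so their results are not independent of each other. All changes are differences of log2(scaled value + 1) from limma, fitted across all 15052 genes, with Benjamini-Hochberg adjusted p. A gene is called where the adjusted p was under 0.05. Where reads come from whole liver, fewer cells of a type and less RNA per cell cannot be told apart.

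Of the 40 genes, 30 lie on chromosome 17 in the MHC (GENCODE release M21, GRCm38). Going along the chromosome, H2-K1 (chr17:33996017-34000347) is followed by H2-DMa (chr17:34119541-34139101), H2-DMb2 and H2-DMb1. Psmb9, Tap1, Psmb8 and Tap2 come next, and then H2-Ob, H2-Ab1 (chr17:34257689-34269419), H2-Aa (chr17:34282744-34287823) and H2-Eb1 (chr17:34305867-34316674), with H2-D1 and the H2-Q, H2-T and H2-M genes beyond. Promoters are shown for 3 class II genes and 3 class I genes because the classes parted in the comparisons below. Each run is the 250 bases before the RefSeq start site (GRCm38.p6, on the gene's own strand, 5′ to 3′), and capitals mark matches to 4 motifs, searched on both strands.
H2-Aa: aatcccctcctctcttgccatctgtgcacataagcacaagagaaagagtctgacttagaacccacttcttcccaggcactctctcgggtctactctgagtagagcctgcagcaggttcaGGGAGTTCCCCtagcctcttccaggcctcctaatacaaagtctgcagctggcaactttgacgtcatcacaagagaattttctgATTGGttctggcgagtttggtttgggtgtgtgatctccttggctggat
H2-Eb1: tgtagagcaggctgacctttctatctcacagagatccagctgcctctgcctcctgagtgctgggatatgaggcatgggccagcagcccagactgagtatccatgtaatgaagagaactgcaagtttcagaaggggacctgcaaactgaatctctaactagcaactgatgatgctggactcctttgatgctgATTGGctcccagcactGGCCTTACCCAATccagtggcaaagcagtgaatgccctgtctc
H2-DMb1: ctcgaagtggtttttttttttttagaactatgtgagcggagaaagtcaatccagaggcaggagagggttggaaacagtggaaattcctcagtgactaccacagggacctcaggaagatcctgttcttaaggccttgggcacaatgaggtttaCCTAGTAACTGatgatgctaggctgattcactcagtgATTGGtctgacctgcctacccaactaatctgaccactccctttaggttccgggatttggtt
H2-K1: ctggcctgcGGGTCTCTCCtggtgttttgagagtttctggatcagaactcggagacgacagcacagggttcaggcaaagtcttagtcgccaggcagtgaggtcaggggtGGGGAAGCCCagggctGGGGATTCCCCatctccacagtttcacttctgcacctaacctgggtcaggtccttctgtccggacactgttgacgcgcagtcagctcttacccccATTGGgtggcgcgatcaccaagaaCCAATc
H2-D1: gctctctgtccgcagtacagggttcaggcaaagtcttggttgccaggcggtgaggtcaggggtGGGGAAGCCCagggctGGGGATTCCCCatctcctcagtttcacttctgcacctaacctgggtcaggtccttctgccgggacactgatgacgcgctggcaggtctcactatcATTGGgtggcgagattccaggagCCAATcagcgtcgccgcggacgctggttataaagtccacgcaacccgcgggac
B2m: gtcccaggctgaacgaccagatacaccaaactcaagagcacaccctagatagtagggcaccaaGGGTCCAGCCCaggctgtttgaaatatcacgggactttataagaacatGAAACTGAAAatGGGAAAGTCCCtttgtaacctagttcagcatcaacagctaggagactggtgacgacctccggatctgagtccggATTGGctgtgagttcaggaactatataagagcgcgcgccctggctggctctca
The windows are chr17:34287824-34288073 for H2-Aa (minus strand), chr17:34305617-34305866 for H2-Eb1, chr17:34152941-34153190 for H2-DMb1, chr17:34000334-34000583 for H2-K1 (minus strand, the first of its 2 listed start sites), chr17:35262844-35263093 for H2-D1 and chr2:122147437-122147686 for B2m. The motifs were the NF-Y box CCAAT, and consensus forms of the X box, the interferon stimulated response element and the kappa B motif, and neighbouring kappa B matches can overlap. Examples of the last 3 are CCTAGTAACTG in H2-DMb1, GAAACTGAAA in B2m and GGGGATTCCC in H2-K1. RefSeq windows were found for 28 of the 40 genes. CCAAT was present in 21 of these 28 genes and in 33.8% of all 32851 windows of the same length, and the kappa B motif in 19 of 28 and in 45.8% of all windows. The X box was matched in H2-DMb1, Psmb9 and Tap1 (4.29% of all windows hold it), and the interferon element in B2m, H2-T22 and H2-T23 (2.98% of all windows). The windows of Psmb9 and Tap1 overlap on opposite strands, and their X box match is the same bases, so shared matches count for both genes. A window without a match can still hold a looser form, since exact letters were required. H2-Eb1 holds a run that departs from the X box letters only at its first base. H2-K1 and H2-D1 both hold TTTCACTTCT, which departs from the interferon element, read on the other strand, only at its last 2 bases. The class I promoters of H2-K1 and H2-D1 both hold the kappa B matches GGGGAAGCCC and GGGGATTCCC, and the interferon element of B2m lies between kappa B matches. The reverse complement ATTGG ends 44 to 57 bases before the start site in the 3 class II windows, and is present in the 3 class I windows too. These matches describe letters and were not tested for binding.

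Class I transcripts far outnumbered class II transcripts in every library. The 18 class I genes held 0.585% to 0.756% of all signal (median 0.668%), and the 8 class II genes 0.0115% to 0.0552% (median 0.0190%). Per kilobase of exon, pair-fed WT mice had a mean of 67590 units for B2m, 18776 for H2-K1, 15921 for H2-Q10, which encodes a soluble class I chain made by the liver, and 7932 for H2-D1. The class II set on the same scale was led by Cd74 with 1914, ahead of H2-Eb1 with 822, H2-Ab1 with 607 and H2-Aa with 441. The H2-DM genes lay below these, H2-DMb1 at 133 per kilobase, H2-DMa at 60.2 and H2-DMb2 at 33.8, and H2-Ob, the chain of a class II accessory protein of B cells, was at 15.0. Of the total class II signal Cd74 made up 35.0% to 40.2% over the 18 libraries, and H2-Aa, H2-Ab1 and H2-Eb1 each made up between 15.9% and 21.6%.

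Of the 8 class II genes, 5 fell with ethanol in WT mice, 6 rose with ethanol in Apoe KO mice and 6 were higher in EtOH-fed Apoe KO than EtOH-fed WT livers, and H2-Ob was called in none of these comparisons. Cd74 stood at 3192, 3177, 2310 and 4179 in pair-fed WT mice, 2195, 1428, 1703, 2689 and 1800 in pair-fed Apoe KO mice, 1647, 1884, 1530, 2273 and 1956 in EtOH-fed WT mice and 2642, 3339, 6624 and 3672 in EtOH-fed Apoe KO mice. All EtOH-fed Apoe KO livers lay above every EtOH-fed WT liver, and all EtOH-fed WT livers below every pair-fed WT liver. H2-Aa, the class II alpha chain, stood at 1671, 1665, 1158 and 2204 in pair-fed WT mice, 1058, 668, 945, 1287 and 856 in pair-fed Apoe KO mice, 795, 854, 781, 1221 and 917 in EtOH-fed WT mice and 1169, 1637, 3169 and 1684 in EtOH-fed Apoe KO mice. EtOH-fed Apoe KO mouse 4 was the highest of all 18 for Cd74, H2-Aa, H2-Ab1 and H2-Eb1, and mouse 1 was the lowest of its group for these 4, with an H2-Aa value below that of EtOH-fed WT mouse 4. H2-Ab1, the matching beta chain, was measured at 1619, 1302, 1135 and 2177 in pair-fed WT mice, 1050, 624, 1014, 1569 and 889 in pair-fed Apoe KO mice, 824, 871, 840, 1145 and 1037 in EtOH-fed WT mice and 1284, 1606, 3328 and 1911 in EtOH-fed Apoe KO mice. H2-Eb1, which encodes another class II beta chain, had 1671, 1382, 1140 and 2199 in pair-fed WT mice, 1228, 712, 827, 1400 and 840 in pair-fed Apoe KO mice, 809, 782, 759, 1132 and 930 in EtOH-fed WT mice and 1243, 1614, 3840 and 1834 in EtOH-fed Apoe KO mice. For both beta chains every EtOH-fed Apoe KO liver exceeded every EtOH-fed WT liver, and pair-fed Apoe KO and EtOH-fed WT mice shared the low range.

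**Figure D1:**
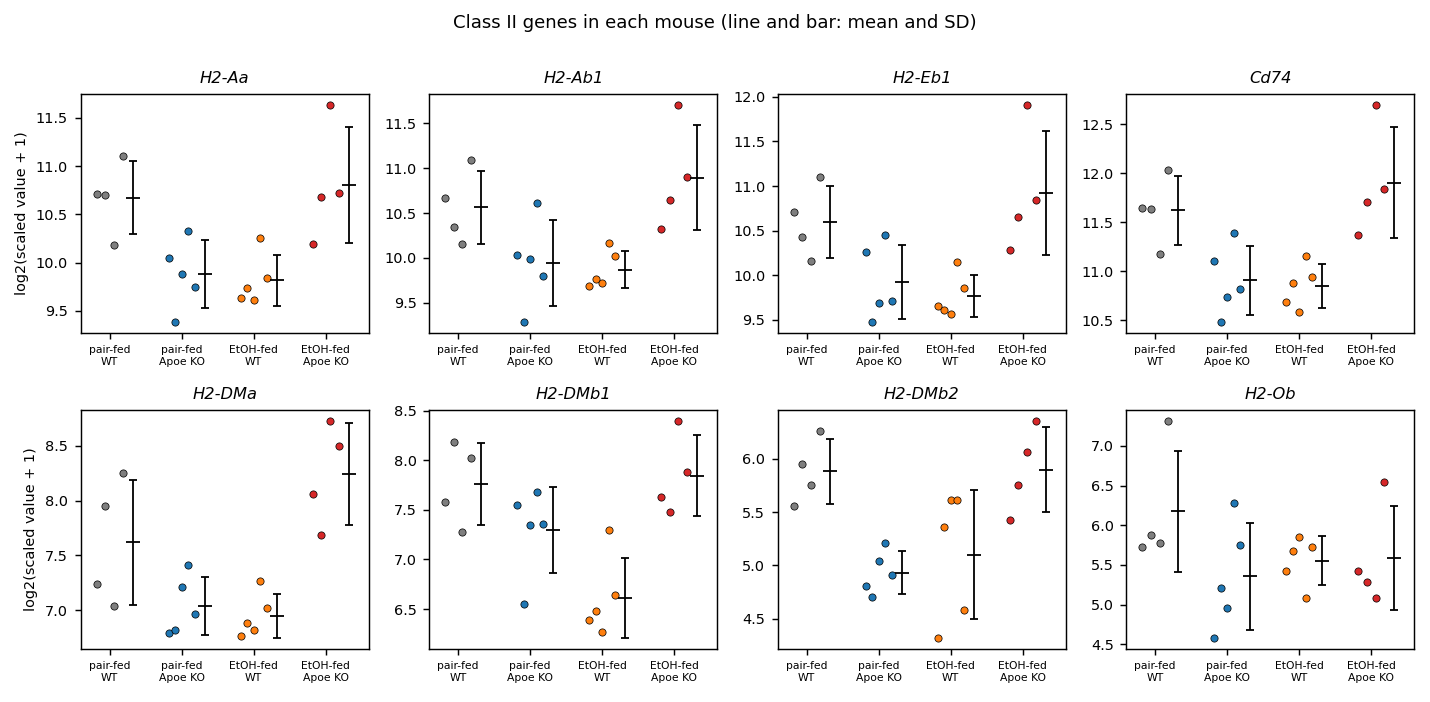
Level of the 8 class II genes in each of the 18 mice, as log2(scaled value + 1) on the vertical axis, with a point per mouse and the group mean and SD beside it. For Cd74 the 4 EtOH-fed Apoe KO points (2642 to 6624 units before the log) lie above all 5 EtOH-fed WT points (1530 to 2273 units), while H2-Ob shows no such separation.

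H2-DMa and H2-DMb1 encode the alpha and a beta chain of H2-DM, the peptide editor of class II. H2-DMa stood at 150, 246, 131 and 303 in pair-fed WT mice, 110, 112, 147, 170 and 124 in pair-fed Apoe KO mice, 108, 117, 112, 153 and 129 in EtOH-fed WT mice and 266, 205, 422 and 361 in EtOH-fed Apoe KO mice. Outside this last group, only pair-fed WT mice 2 and 4 reached its range. H2-DMb1 was found at 190, 289, 154 and 259 in pair-fed WT mice, 186, 93, 162, 204 and 163 in pair-fed Apoe KO mice, 83, 88, 76, 156 and 99 in EtOH-fed WT mice and 197, 177, 336 and 235 in EtOH-fed Apoe KO mice. EtOH-fed WT livers were the lowest group, with mouse 4 above the other mice of that group, and no EtOH-fed Apoe KO liver fell into their range. H2-DMb2, a second beta chain, was low throughout, from 19 units in an EtOH-fed WT liver to 81 in an EtOH-fed Apoe KO liver. Since 22.7% of the 50-base words of H2-DMb1 and 24.8% of those of H2-DMb2 also occur in another gene, chiefly each in the other, counting could have split reads between them. H2-Ob ranged from 23 to 158 units, and its highest value, in pair-fed WT mouse 4, stood apart from the 52 to 58 units of the other 3 mice of that group.

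In WT mice, ethanol lowered 5 of the 8 class II genes and raised none, with a median log2 fold change of -0.78 against -0.01 over all genes. Among all genes 12.7% were called in this comparison, 6.19% as higher and 6.52% as lower, and 15 of the 40 genes were, 14 of them lower. H2-DMb1 changed most among class II, by -1.15 (SE 0.25, adjusted p = 0.00997). H2-Aa changed by -0.86 (SE 0.18, adjusted p = 0.00757), which is 0.552 of the pair-fed level. The change was -0.83 (SE 0.18, adjusted p = 0.00932) for H2-Eb1, -0.77 (SE 0.16, adjusted p = 0.00757) for Cd74 and -0.69 (SE 0.17, adjusted p = 0.0212) for H2-Ab1. H2-DMa at -0.67 (adjusted p = 0.0914), H2-DMb2 at -0.78 (adjusted p = 0.154) and H2-Ob at -0.62 (adjusted p = 0.264) did not pass. The call for H2-Ab1 was lost without pair-fed WT mouse 1 or 4 (adjusted p of at most 0.0585). Groups did not overlap for 13 of the 40 genes, all downward, where 14.4% of all genes did not overlap, 6.96% downward and 7.43% upward. The class II transactivator was lower as well. Ciita stood at 161, 116, 68 and 131 in pair-fed WT mice, 83, 46, 53, 74 and 58 in pair-fed Apoe KO mice, 64, 58, 45, 73 and 60 in EtOH-fed WT mice and 73, 81, 242 and 50 in EtOH-fed Apoe KO mice, and fell with ethanol in WT mice by 0.93 on the log2 scale (SE 0.27, adjusted p = 0.0378). EtOH-fed Apoe KO mouse 4, the library highest in class II, also had by far the highest Ciita value. The call for Ciita held in 2 of the 9 fits that leave out 1 mouse, those without pair-fed WT mouse 3 and without EtOH-fed WT mouse 4, and its adjusted p reached 0.101 in the others. Without pair-fed WT mouse 4 the count of called genes was 9, all lower, among them 4 of class II.

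The class I transactivator gene Nlrc5 and 4 of 5 immunoproteasome and activator genes were called lower with ethanol in WT mice. Nlrc5 was measured at 968, 1245, 709 and 1131 in pair-fed WT mice, 853, 628, 1022, 911 and 835 in pair-fed Apoe KO mice, 646, 595, 531, 498 and 453 in EtOH-fed WT mice and 728, 716, 753 and 627 in EtOH-fed Apoe KO mice. Every EtOH-fed WT value was below every pair-fed WT value, and the change was -0.87 (SE 0.17, adjusted p = 0.00458). Psmb10, the immunoproteasome subunit that takes the place of beta-2 of the standard core, stood at 2357, 2644, 1992 and 2084 in pair-fed WT mice, 2150, 1537, 2303, 2142 and 2117 in pair-fed Apoe KO mice, 1108, 1120, 1170, 1185 and 1408 in EtOH-fed WT mice and 1303, 902, 1502 and 1665 in EtOH-fed Apoe KO mice. Its WT groups did not overlap, and it changed by -0.92 (SE 0.11, adjusted p = 0.000311). The median over the 5 genes was -0.54. Psmb8, a catalytic subunit, changed by -0.59 (SE 0.15, adjusted p = 0.0241), and Psme1 and Psme2, the chains of the PA28 activator, by -0.40 (SE 0.09, adjusted p = 0.0105) and -0.41 (SE 0.12, adjusted p = 0.037). Psmb9 at -0.54 had an adjusted p of 0.102. The call for Psmb8 was lost in 4 of 9 fits without 1 mouse (pair-fed WT mice 2 and 4, EtOH-fed WT mice 1 and 2), with an adjusted p of at most 0.0792, and that for Psme2 in 6 of 9 (pair-fed WT mice 2, 3 and 4, EtOH-fed WT mice 1, 2 and 4), with at most 0.111.

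Genes of peptide transport and trimming were not called with ethanol in WT mice. Tap1 and Tap2, which pair to form the peptide transporter, changed by -0.24 and 0.05 on the log2 scale, the tapasin gene Tapbp by -0.32 (adjusted p = 0.0562), its relative Tapbpl by -0.30 and the trimming enzyme gene Erap1 by -0.02. Ifi30, whose product reduces disulfide bonds of antigens in lysosomes, stood at 455, 596, 487 and 797 in pair-fed WT mice, 519, 420, 498, 606 and 777 in pair-fed Apoe KO mice, 317, 447, 334, 394 and 328 in EtOH-fed WT mice and 743, 504, 745 and 934 in EtOH-fed Apoe KO mice. It changed by -0.66 (SE 0.17, adjusted p = 0.0262) with ethanol in WT mice, and EtOH-fed Apoe KO values all exceeded those of EtOH-fed WT mice. That call in WT mice was lost without pair-fed WT mouse 2 or 4, or EtOH-fed WT mouse 1 or 3 (adjusted p of at most 0.0792).

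In Apoe KO mice the class II calls with ethanol were all upward. Of all genes, 23.2% were called (16.3% higher, 6.92% lower), and of the 40 genes 13 were, 9 of them higher. In class II, 6 of 8 genes rose and none fell, with a median log2 fold change of 0.96 against 0.13 for all genes. H2-DMa rose by 1.20 (SE 0.23, adjusted p = 0.00224), or 2.3-fold. H2-Eb1 rose by 1.001 (SE 0.28, adjusted p = 0.0194), Cd74 by 0.998 (SE 0.23, adjusted p = 0.0075), H2-DMb2 by 0.97 (SE 0.31, adjusted p = 0.0388), H2-Ab1 by 0.95 (SE 0.27, adjusted p = 0.0202) and H2-Aa by 0.93 (SE 0.24, adjusted p = 0.0144). H2-DMb1 at 0.55 (adjusted p = 0.132) and H2-Ob at 0.23 (adjusted p = 0.739) did not pass, nor did Ciita at 0.58 (adjusted p = 0.312) and Ifi30 at 0.37 (adjusted p = 0.185). H2-DMb2 kept its call only without EtOH-fed Apoe KO mouse 1 among the 9 fits that leave out a mouse (adjusted p up to 0.107), and H2-Ab1 lost it without EtOH-fed Apoe KO mouse 4 or 5 (up to 0.0591). Groups did not overlap for 4 of the 40 genes upward and 2 downward, where 14.0% and 6.01% of all genes did so, 20.0% together. These numbers were 9 upward and 2 downward without EtOH-fed Apoe KO mouse 1, against 18.8% and 7.34% of all genes.

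Of the 5 immunoproteasome and activator genes, only Psmb10 was called with ethanol in Apoe KO mice, at -0.63 (SE 0.17, adjusted p = 0.0148). All 5 estimates were below 0, from -0.63 to -0.06 with a median of -0.15. Nlrc5 was at -0.25 (adjusted p = 0.2). Erap1 stood at 1982, 1631, 2328 and 1452 in pair-fed WT mice, 2692, 2601, 2399, 2543 and 2274 in pair-fed Apoe KO mice, 1881, 2024, 1599, 2079 and 1470 in EtOH-fed WT mice and 1900, 1998, 2264 and 1661 in EtOH-fed Apoe KO mice. It was lower with ethanol in Apoe KO mice by -0.36 (SE 0.10, adjusted p = 0.0198), a call lost without EtOH-fed Apoe KO mouse 5 (adjusted p = 0.0636). Without EtOH-fed Apoe KO mouse 1, the library with the Xist value against its label, 12 of the 40 genes were called and class II kept 6 higher with a median of 1.13. Of all genes 22.1% were called in that fit, 15.8% as higher and 6.26% as lower. Leaving out EtOH-fed Apoe KO mouse 5 left 7 called genes, and leaving out mouse 4 lowered the class II median to 0.68 with 4 called.

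The scaling mattered for the balance of calls in this comparison. With median-of-ratios size factors in place of the deposited scaling, the median of all genes moved from 0.13 to 0.0018 and the calls over all genes from 2446 higher and 1042 lower to 1656 higher and 1607 lower. Class II still had 5 genes called higher, H2-DMb2 having been lost, and a median of 0.83. In the comparison of EtOH-fed genotypes the median of all genes moved from 0.11 to -0.02 and the all-gene calls from 639 higher and 67 lower to 380 and 126, with class II at 6 called higher and a median of 0.91. For the interaction the all-gene calls went from 392 higher and 36 lower to 294 and 84, and class II kept 7 called higher with a median of 1.62.

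Between pair-fed genotypes none of the 40 genes was called, where 1.73% of all genes were, 0.87% higher and 0.864% lower. At an unadjusted p under 0.05, 12 of the 40 passed in limma, as did 2991 of all 15052 genes. The class II median was -0.70, and all 8 class II estimates were below 0, from -0.47 for H2-DMb1 to -0.95 for H2-DMb2. H2-Aa had -0.79 (SE 0.19, adjusted p = 0.0517) and Cd74 -0.71 (SE 0.18, adjusted p = 0.0585). H2-Aa passed with median-of-ratios size factors (adjusted p = 0.044), and 5 genes were called without pair-fed WT mouse 3, with 4 of them lower, 2 without pair-fed Apoe KO mouse 4 and 1 without pair-fed Apoe KO mouse 5. Erap1 at 0.46 (SE 0.12, adjusted p = 0.0737) and the nonclassical class I gene H2-T23, whose product is the mouse Qa-1 molecule, at 0.43 (SE 0.13, adjusted p = 0.095) had the highest estimates among the genes that came near the threshold from above 0. Groups did not overlap for 3 of the 40 genes, all lower in Apoe KO mice, where 7.03% of all genes did not overlap, 3.02% downward and 4.01% upward. The immunoproteasome median was -0.15, the class I median -0.10 and the median over all genes -0.0047.

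Between EtOH-fed genotypes, 7 of the 40 genes were called and all were higher in Apoe KO mice, where 4.69% of all genes were called (4.25% higher and 0.445% lower). They were 6 class II genes and Ifi30. H2-DMa led with 1.29 (SE 0.22, adjusted p = 0.00587), which is 2.45-fold. H2-DMb1 had 1.23 (SE 0.25, adjusted p = 0.0149) and H2-Eb1 1.15 (SE 0.25, adjusted p = 0.0216). Cd74 differed by 1.06 (SE 0.21, adjusted p = 0.0136), H2-Ab1 by 1.02 (SE 0.22, adjusted p = 0.0187) and H2-Aa by 0.99 (SE 0.23, adjusted p = 0.0289). The difference for Ifi30 was 0.98 (SE 0.18, adjusted p = 0.00816). H2-DMb2 at 0.80 (adjusted p = 0.245) and H2-Ob at 0.03 (adjusted p = 0.977) did not pass. The class II median was 1.04 against 0.11 over all genes, 0.15 over class I, 0.13 over the immunoproteasome and 0.12 over peptide loading. None of the 18 class I genes was called here, and 2 had an unadjusted p under 0.05 in limma, as did 2845 of all 15052 genes. Psmb9, Tap1, Psmb8 and Tap2, which lie on the chromosome between H2-DMb1 and H2-Ab1, had 0.38, 0.38, 0.24 and 0.09, while the flanking H2-DMb1 and H2-Ab1 had 1.23 and 1.02. Groups did not overlap for 7 of the 40 genes, all upward, where 8.13% of all genes did not overlap, 7.12% upward and 1.0% downward. It was 9 of the 40 without EtOH-fed Apoe KO mouse 1, again all upward, against 11.1% of all genes upward and 1.74% downward.

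Without EtOH-fed Apoe KO mouse 1, 7 genes were again called higher, 6 of them class II, and the class II median was 1.22. Of all genes 4.12% were called in that fit, 3.75% as higher. The count dropped to 4 without EtOH-fed WT mouse 1 or without EtOH-fed Apoe KO mouse 5, with 3 of class II in each case. H2-Ab1 and H2-Eb1 lost their calls without either of these 2 mice, and H2-Aa without EtOH-fed WT mouse 1, 2 or 3 or EtOH-fed Apoe KO mouse 4 or 5, with adjusted p up to 0.0543, 0.0578 and 0.0761. Without EtOH-fed Apoe KO mouse 4 the class II median was 0.77 with 5 called.

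**Figure D2:**
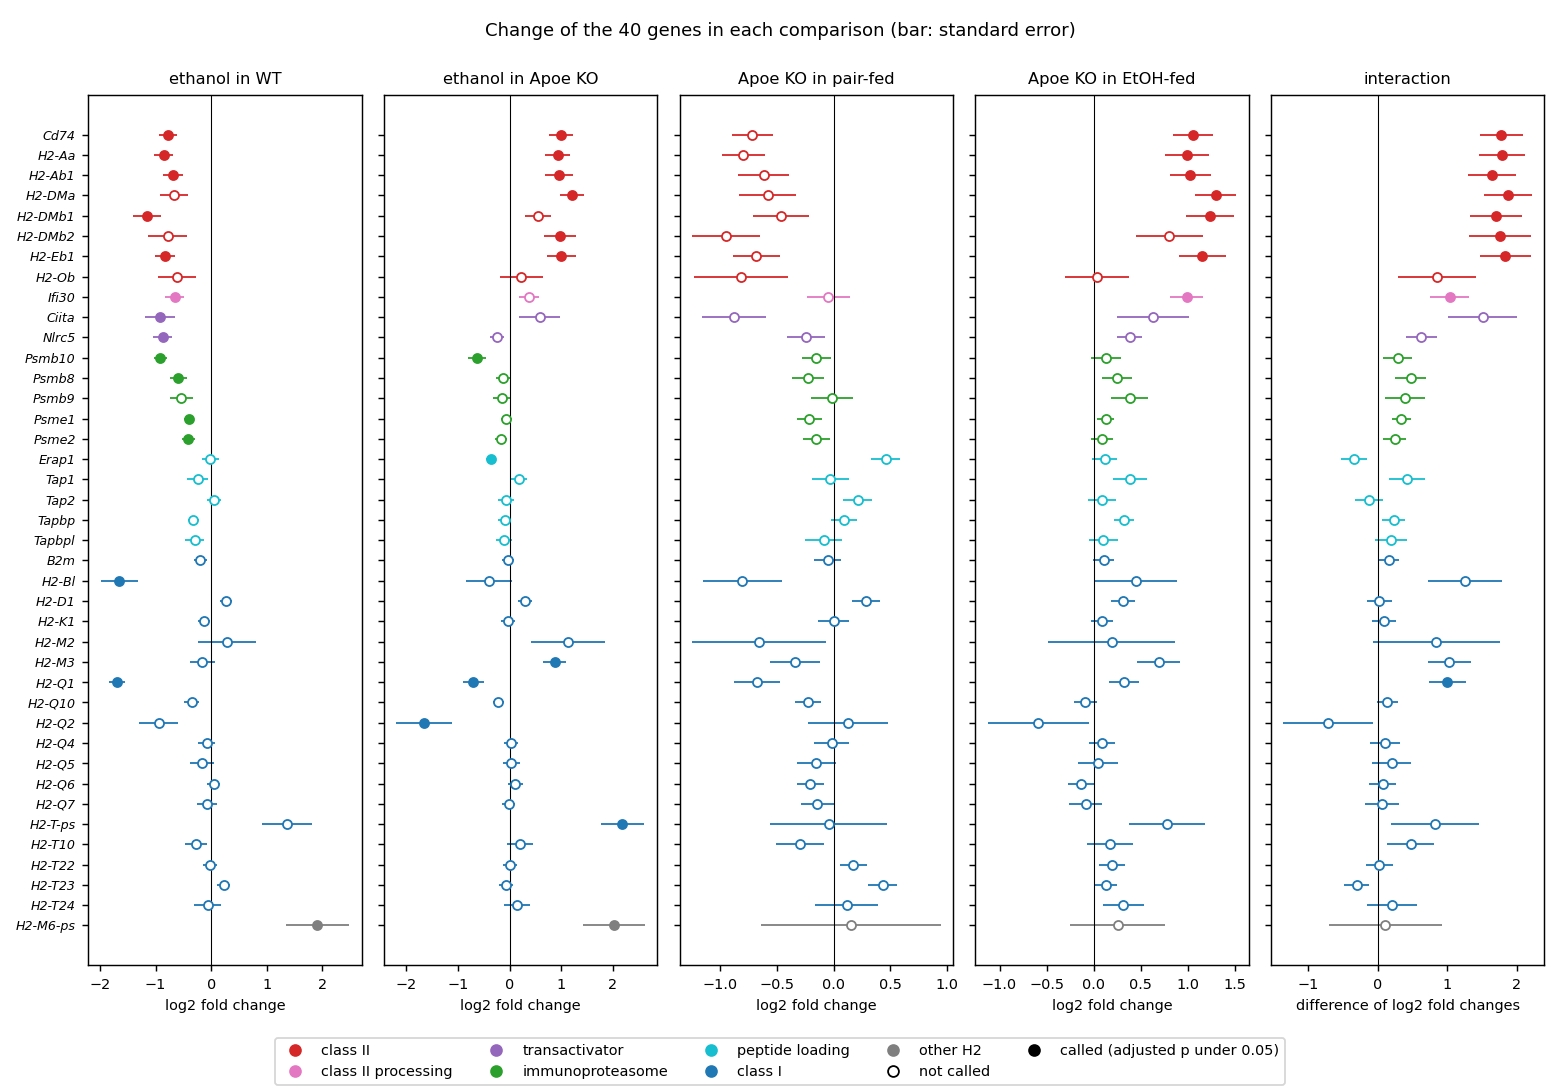
Log2 fold change of each of the 40 genes (rows, coloured by role) in the 5 comparisons, with the standard error as a bar and filled points where the adjusted p was under 0.05. The 8 class II rows lie left of 0 for ethanol in WT mice (median -0.78) and right of 0 for ethanol in Apoe KO mice (median 0.96), while class I rows scatter around 0 (medians -0.10 and 0.01), and each panel has its own horizontal scale.

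The interaction tests directly whether the ethanol response differed between genotypes, in a fit of all 18 mice. It was called for 9 of the 40 genes, all with the more positive response in Apoe KO mice, where 2.84% of all genes were called (2.6% in that direction and 0.239% in the other). Among them were 7 of 8 class II genes, with a class II median of 1.76 against 0.11 over all genes. H2-DMa differed by 1.87 (SE 0.35, adjusted p = 0.00714) and H2-Eb1 by 1.83 (SE 0.37, adjusted p = 0.0112). For H2-Aa the difference was 1.78 (SE 0.33, adjusted p = 0.00714) and for Cd74 1.77 (SE 0.31, adjusted p = 0.00571). The value was 1.75 (SE 0.45, adjusted p = 0.0365) for H2-DMb2, 1.70 (SE 0.37, adjusted p = 0.0156) for H2-DMb1 and 1.64 (SE 0.35, adjusted p = 0.0151) for H2-Ab1. H2-Ob had 0.85 (adjusted p = 0.479) and Ciita 1.51 (adjusted p = 0.109). The other 2 calls were Ifi30 with 1.03 (SE 0.28, adjusted p = 0.0462) and the class I gene H2-Q1 with 0.99 (SE 0.27, adjusted p = 0.0462). Calls for Cd74, H2-Aa, H2-Ab1, H2-DMa, H2-DMb1 and H2-Eb1 held in all 18 fits that left out 1 mouse, with an adjusted p of at most 0.0485. Those for H2-DMb2, Ifi30 and H2-Q1 were lost in 10, 13 and 14 of the 18, with adjusted p up to 0.0991, 0.133 and 0.107. H2-DMb2 kept its call without pair-fed WT mouse 1 or 3, pair-fed Apoe KO mouse 4, EtOH-fed WT mouse 2, 3 or 4, or EtOH-fed Apoe KO mouse 1 or 2. Ifi30 kept it without pair-fed WT mouse 1 or 3, pair-fed Apoe KO mouse 5, EtOH-fed WT mouse 2 or EtOH-fed Apoe KO mouse 2, and H2-Q1 without pair-fed WT mouse 3, pair-fed Apoe KO mouse 3 or 4, or EtOH-fed WT mouse 4. Without EtOH-fed Apoe KO mouse 1 the interaction was called for 7 of the 40 genes, all of class II, with a class II median of 1.92. Of all genes 3.18% were called in that fit, 2.96% with the more positive response in Apoe KO mice.

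Of the 18 class I genes, 2 were called with ethanol in WT mice and 4 in Apoe KO mice, where 12.7% and 23.2% of all genes were. These counts are near the shares of all genes. None was called between genotypes in limma on either diet (1.73% of all genes pair-fed, 4.69% EtOH-fed), and 1 was for the interaction (2.84%). At an unadjusted p under 0.05 there were 4 pair-fed and 2 EtOH-fed, against 2991 and 2845 of all 15052 genes. H2-K1, a classical heavy chain, stood at 54621, 56572, 57303 and 52162 in pair-fed WT mice, 57471, 43899, 63919, 64621 and 49212 in pair-fed Apoe KO mice, 55075, 52056, 51087, 47484 and 47138 in EtOH-fed WT mice and 60777, 49234, 50965 and 54884 in EtOH-fed Apoe KO mice. The 4 groups overlapped, and no comparison exceeded an estimate of -0.13 (ethanol in WT mice, adjusted p = 0.504) in size. H2-D1, the other classical chain of this strain, had 20018, 21141, 19887 and 20781 in pair-fed WT mice, 27901, 19921, 27390, 29385 and 21379 in pair-fed Apoe KO mice, 24652, 27453, 25208, 26064 and 20534 in EtOH-fed WT mice and 36605, 26713, 30188 and 29391 in EtOH-fed Apoe KO mice. EtOH-fed Apoe KO mouse 1 was the highest of all libraries, and the estimates for ethanol were 0.27 in WT and 0.29 in Apoe KO mice (adjusted p = 0.122 and 0.137). B2m was measured at 56620, 58063, 55837 and 61989 in pair-fed WT mice, 58199, 46849, 59737, 57843 and 58212 in pair-fed Apoe KO mice, 49003, 48449, 53260, 51780 and 51526 in EtOH-fed WT mice and 53117, 48518, 57941 and 59209 in EtOH-fed Apoe KO mice. Pair-fed Apoe KO mouse 2 had the lowest B2m value of all, and EtOH-fed WT mice lay below pair-fed WT mice without a call (-0.19, adjusted p = 0.279). A p over the threshold does not show that levels were equal. The class II median log2 fold change minus that of class I was -0.67 for ethanol in WT, 0.95 for ethanol in Apoe KO, -0.60 between pair-fed and 0.89 between EtOH-fed genotypes, and 1.62 for the interaction.

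**Figure D3:**
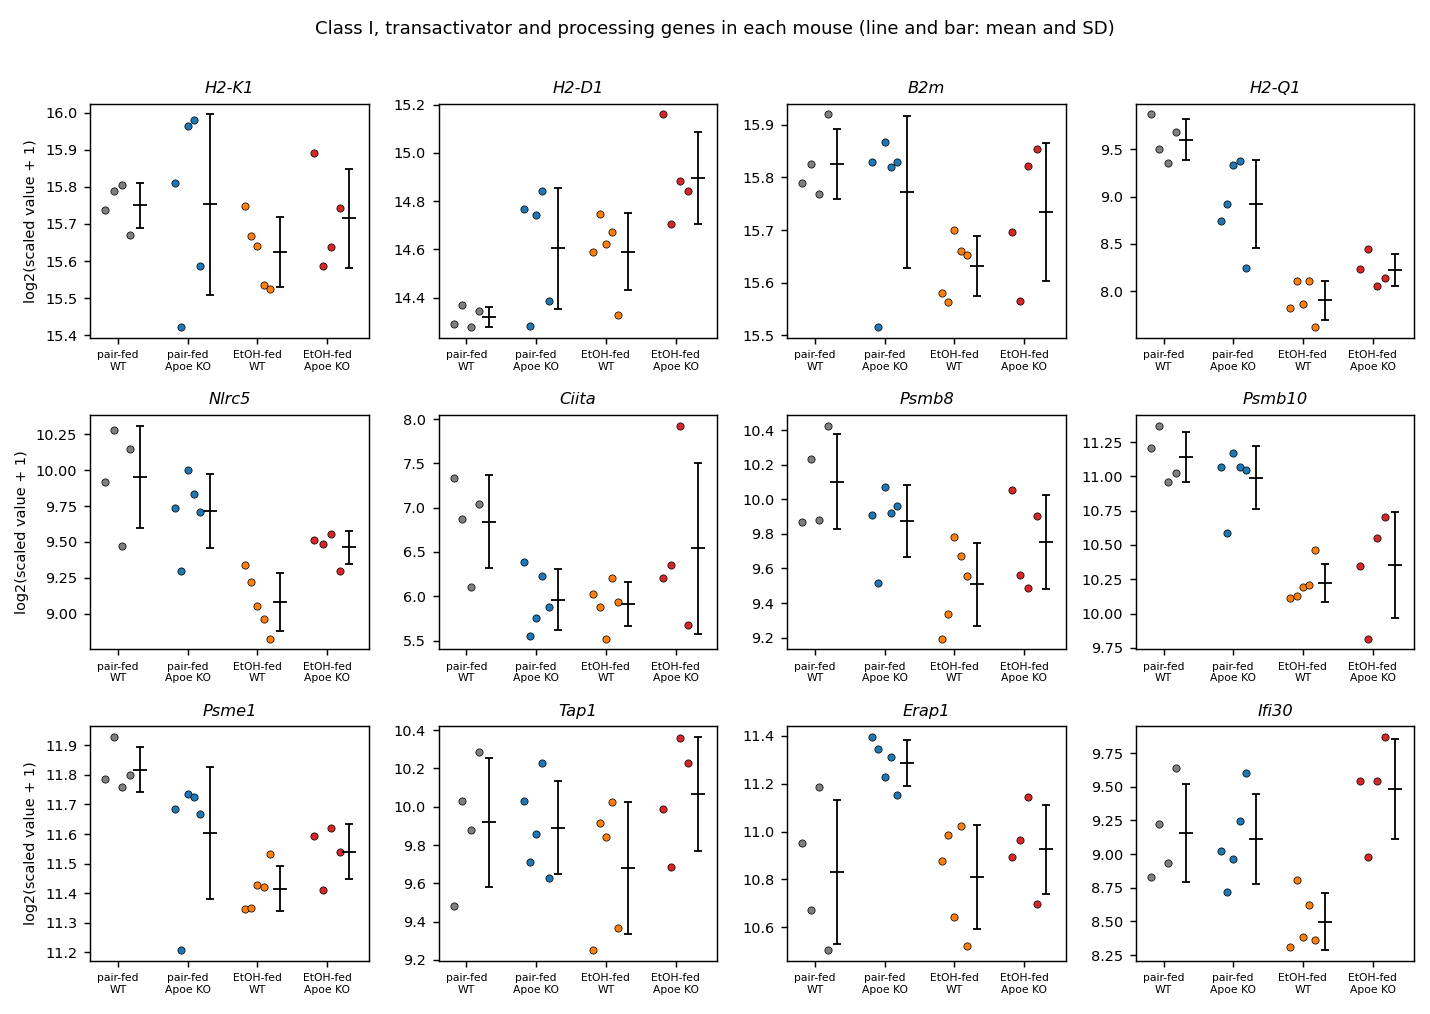
Class I, transactivator and processing genes in each mouse, as log2(scaled value + 1), with a point per mouse and the mean and SD of each group beside it. H2-K1 (43899 to 64621 units before the log) overlaps in all groups, whereas H2-Q1 and Psmb10 separate pair-fed from EtOH-fed WT mice, 655 to 933 against 196 to 275 units and 1992 to 2644 against 1108 to 1408 units.

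Among the called genes of the class I family were H2-Q1, H2-Bl and H2-M3. H2-Q1, a nonclassical heavy chain gene (chr17:35320405-35325099), stood at 933, 724, 655 and 817 in pair-fed WT mice, 428, 483, 643, 661 and 303 in pair-fed Apoe KO mice, 226, 275, 232, 274 and 196 in EtOH-fed WT mice and 301, 348, 266 and 281 in EtOH-fed Apoe KO mice. Every EtOH-fed liver lay below every pair-fed liver of the WT genotype, and the change of -1.70 (SE 0.15, adjusted p = 2.4e-05) had the lowest adjusted p of the 40 genes in any comparison. In Apoe KO mice it was -0.70 (SE 0.21, adjusted p = 0.0266), lost without pair-fed Apoe KO mouse 3 or 4 or EtOH-fed Apoe KO mouse 4 or 5 (adjusted p of at most 0.0681). H2-Bl, annotated as a polymorphic pseudogene, had 46, 58, 51 and 55 in pair-fed WT mice, 34, 55, 20, 26 and 23 in pair-fed Apoe KO mice, 12, 15, 24, 18 and 13 in EtOH-fed WT mice and 19, 31, 33 and 12 in EtOH-fed Apoe KO mice. It was lower with ethanol in WT mice, by -1.66 (SE 0.33, adjusted p = 0.00647), and in Apoe KO mice its estimate was -0.41 (adjusted p = 0.547). H2-M3, which presents formylated peptides, was at 104, 161, 155 and 197 in pair-fed WT mice, 136, 90, 115, 127 and 131 in pair-fed Apoe KO mice, 96, 124, 163, 153 and 148 in EtOH-fed WT mice and 198, 158, 303 and 235 in EtOH-fed Apoe KO mice. It rose with ethanol in Apoe KO mice by 0.87 (SE 0.22, adjusted p = 0.0114) and had -0.16 in WT mice.

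The other calls of this family rest on few reads, and so does that of H2-Bl above. The pseudogene H2-T-ps had 17, 30, 19 and 10 in pair-fed WT mice, 8, 33, 20, 17 and 16 in pair-fed Apoe KO mice, 27, 51, 103, 59 and 27 in EtOH-fed WT mice and 77, 72, 135 and 58 in EtOH-fed Apoe KO mice. It was higher with ethanol in Apoe KO mice by 2.18 (SE 0.42, adjusted p = 0.00254), with 1.36 (SE 0.45, adjusted p = 0.0656) in WT mice. H2-Q2 stood at 63, 43, 27 and 35 in pair-fed WT mice, 80, 38, 40, 40 and 33 in pair-fed Apoe KO mice, 22, 22, 16, 17 and 26 in EtOH-fed WT mice and 9, 5, 41 and 15 in EtOH-fed Apoe KO mice, and was lower with ethanol in Apoe KO mice by -1.66 (SE 0.53, adjusted p = 0.0382), a call that held in 1 of 9 fits without a mouse, the one without EtOH-fed Apoe KO mouse 4. H2-M6-ps had 12, 3, 6 and 3 in pair-fed WT mice, 4, 11, 8, 3 and 6 in pair-fed Apoe KO mice, 9, 24, 37, 30 and 22 in EtOH-fed WT mice and 10, 43, 37 and 31 in EtOH-fed Apoe KO mice. It was higher with ethanol in both genotypes, by 1.91 (SE 0.57, adjusted p = 0.0436) in WT and 2.01 (SE 0.60, adjusted p = 0.0279) in Apoe KO mice, and the first call held only without pair-fed WT mouse 1 or EtOH-fed WT mouse 1, the second being lost without pair-fed Apoe KO mouse 4 or EtOH-fed Apoe KO mouse 2, 4 or 5, with adjusted p up to 0.109 and 0.0835. In pair-fed WT mouse 1, where 1 read is worth 5.77 units, a value of 12 stands for very few reads. Sequence sharing adds to the doubt, since 13.6% to 36.5% of the 50-base words of H2-T10, H2-T22, H2-T23, H2-T-ps and the 7 H2-Q genes also occur in other genes, against 9.63% for H2-K1, 0.488% for H2-Aa and 0 for Cd74, H2-Ab1, H2-Eb1 and H2-DMa. The 10 class I genes called in no comparison besides H2-K1, H2-D1 and B2m were H2-M2, H2-Q4, H2-Q5, H2-Q6, H2-Q7, H2-Q10, H2-T10, H2-T22, H2-T23 and H2-T24.

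**Figure D4:**
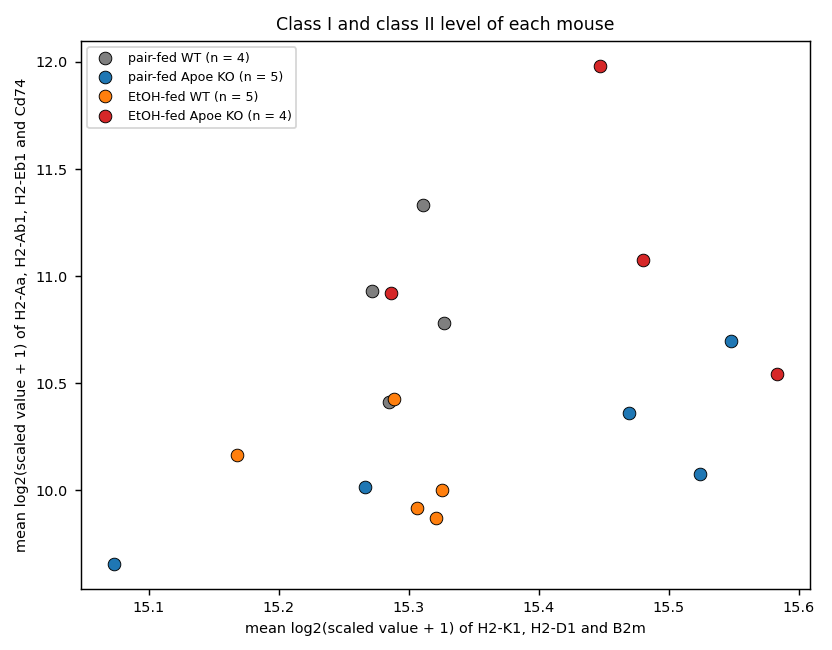
Mean log2(scaled value + 1) of the class II chains H2-Aa, H2-Ab1, H2-Eb1 and Cd74 (vertical) against that of H2-K1, H2-D1 and B2m (horizontal), with a point per mouse coloured by group. The vertical axis spans 9.66 to 11.98 and the horizontal axis 15.07 to 15.58, and EtOH-fed Apoe KO mice reach 10.54 to 11.98 on the vertical axis where EtOH-fed WT mice reach 9.87 to 10.43.

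Genes that serve the same pathways but were not part of the set gave a mixed picture. Shares of all genes called, for this and the lists below, were 12.7% with ethanol in WT mice and 23.2% in Apoe KO mice. They were 4.69% between EtOH-fed genotypes, 1.73% between pair-fed genotypes and 2.84% for the interaction. Ctss, the cathepsin that cuts the invariant chain in antigen-presenting cells, changed by -0.70 (SE 0.17, adjusted p = 0.0189) with ethanol in WT mice, by 0.83 (SE 0.16, adjusted p = 0.00304) in Apoe KO mice and by 1.23 (SE 0.19, adjusted p = 0.00387) between EtOH-fed genotypes, with an interaction of 1.53 (SE 0.26, adjusted p = 0.00491). Ctsl, another cathepsin, rose with ethanol in both genotypes, by 1.72 in WT and 1.57 in Apoe KO mice (adjusted p = 1.39e-05 and 1.24e-05). Of 8 class II processing proteases and their inhibitor, 2 were called higher and 1 lower with ethanol in WT mice, 5 higher in Apoe KO mice and 2 higher between EtOH-fed genotypes, the second of these being the legumain gene Lgmn at 1.18 (SE 0.14, adjusted p = 0.000807). Among 10 factors that bind class I or class II promoters, 1 was called with ethanol in WT mice (Nfyb at -0.49, adjusted p = 0.00842) and none between genotypes on either diet. In Apoe KO mice Nfyb fell by 0.70 (adjusted p = 0.000659), and Rfxank (0.70), Nfya (0.62) and Relb (0.78) rose. Of 13 loading and processing partners, 1 was called higher and 1 lower with ethanol in WT mice, and 2 higher and 1 lower in Apoe KO mice. These counts are near the shares of all genes. Hspa5, a chaperone of the endoplasmic reticulum, rose in both genotypes (0.90 and 1.41), Cd1d1, which encodes a lipid-presenting relative of class I, fell in both, by 0.51 in each, and Psmb5, a standard proteasome subunit gene, rose in Apoe KO mice (0.37). Between EtOH-fed genotypes 3 of the 13 were called, and Hspa5, Calr and Pdia3 were higher in EtOH-fed Apoe KO than EtOH-fed WT mice (0.998, 0.62 and 0.55). With EtOH-fed Apoe KO mouse 1 left out, the partners had 1 gene higher and 1 lower with ethanol in Apoe KO mice and 3 higher between EtOH-fed genotypes, the proteases 4 higher and 1 lower and then 2 higher, and the promoter factors 3 higher and 1 lower and then none.

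Interferons induce many MHC genes, and their response genes were counted alongside. Of 16 interferon gamma pathway genes, 6 fell and 1 rose with ethanol in WT mice, among them the chemokine gene Cxcl9 by -1.48 (SE 0.20, adjusted p = 0.000613) and the guanosine triphosphatase genes Igtp by -0.98 (SE 0.16, adjusted p = 0.00156) and Gbp3 by -1.02 (SE 0.23, adjusted p = 0.0119). In Apoe KO mice 2 of the 16 rose and 1 fell with ethanol, a share below the 23.2% of all genes called there. Between EtOH-fed genotypes 2 of the 16 were called, both higher in Apoe KO mice (Ifngr1 at 0.63 and Cxcl10 at 1.26), with a median of 0.51 and all 16 estimates above 0. For the interaction none was called in limma and 9 had an unadjusted p under 0.05, as did 2451 of all 15052 genes.

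Of 15 type I interferon response genes, 3 fell with ethanol in WT mice, 5 rose in Apoe KO mice, 10 were higher in EtOH-fed Apoe KO than EtOH-fed WT mice, among them Usp18 at 1.39 (SE 0.18, adjusted p = 0.00128), and 4 were called for the interaction, led by Ifit2 at 1.67 (SE 0.33, adjusted p = 0.0112). Between EtOH-fed genotypes 4.69% of all genes were called, and the median over these 15 was 1.21, where class II had 1.04 and class I 0.15. Between pair-fed genotypes 1 of the 15 was called, Ifi44 at 0.82. Among the mice other than EtOH-fed Apoe KO mouse 1, 5 of the 15 were called with ethanol in Apoe KO mice, 11 between EtOH-fed genotypes and 5 for the interaction, and of the 16 interferon gamma genes 4, 2 and 1.

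Markers of immune cells differed between the groups too, unequally from list to list, and their part in the class II results was not tested. All 6 Kupffer cell markers were higher in EtOH-fed Apoe KO than EtOH-fed WT livers (median 1.35), with Cd5l at 1.77 (SE 0.22, adjusted p = 0.0012) and Clec4f at 1.12 (SE 0.19, adjusted p = 0.00598). Their summed level was 7099 to 13079 units in pair-fed WT mice, 7391 to 14787 in pair-fed Apoe KO, 4329 to 8268 in EtOH-fed WT and 10758 to 20810 in EtOH-fed Apoe KO mice. With ethanol in WT mice 2 of the 6 fell, and in Apoe KO mice 2 rose. Of 6 pan-leukocyte and phagocyte markers 4 were higher between EtOH-fed genotypes, among them Cd68 at 1.35 (SE 0.15, adjusted p = 0.000725), and the summed level of the 6 was 1841 to 3088 units in EtOH-fed WT and 3857 to 6346 in EtOH-fed Apoe KO mice. Monocyte and infiltrating macrophage markers were called higher for 3 of 6, among them Trem2 at 1.91 (SE 0.30, adjusted p = 0.00363). Between pair-fed genotypes, where the class II median was -0.70, the median was 0.02 over the Kupffer cell markers, 0.04 over the pan-leukocyte markers and -0.15 over the monocyte markers, with Gpnmb alone called among the 18, at 2.03 (SE 0.44, adjusted p = 0.0353). Without EtOH-fed Apoe KO mouse 1, 4 of 6 Kupffer cell, 4 of 6 pan-leukocyte and 3 of 6 monocyte markers were higher between EtOH-fed genotypes, and the Kupffer cell sum of the EtOH-fed Apoe KO group was 10758 to 17772 units.

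B cell and dendritic cell markers had medians of 0.22 and 0.30 between EtOH-fed genotypes, where class II had 1.04, and of -1.17 and -0.38 between pair-fed genotypes, where class II had -0.70. The summed level of 6 B cell markers was 534 to 1365 units in pair-fed WT, 254 to 552 in pair-fed Apoe KO, 282 to 627 in EtOH-fed WT and 715 to 1230 in EtOH-fed Apoe KO mice. Much of this sum was Ighm. Without Ighm, a sum added after the values were seen, the other 5 markers came to 242 to 585, 114 to 262, 145 to 311 and 198 to 354 units in the same order of groups, so that EtOH-fed Apoe KO mice overlapped all other groups. Of the 6, Ighm alone was called, at -0.99 (SE 0.28, adjusted p = 0.0359) with ethanol in WT mice, 1.40 (SE 0.29, adjusted p = 0.00375) in Apoe KO mice and 1.41 (SE 0.27, adjusted p = 0.0115) between EtOH-fed genotypes. Of 9 measured dendritic cell markers 1 was called in the last comparison, Irf8 at 0.76 (SE 0.17, adjusted p = 0.0222), and their summed level ranged from 832 to 1722 units over all mice. The T and NK cell markers summed to 125 to 435 units, with none of 8 called between EtOH-fed genotypes. Among these lists, a value of 0 was found for Cd4 in 1 pair-fed Apoe KO mouse and for no other marker. Of 5 measured costimulation genes, Cd86 was higher in EtOH-fed Apoe KO mice at 1.25 (SE 0.25, adjusted p = 0.0128). Cd274 was called lower with ethanol in WT mice, at -0.88 (SE 0.27, adjusted p = 0.0497). Without EtOH-fed Apoe KO mouse 1, B cell, dendritic cell, T and NK cell and costimulation lists each had 1 gene called between EtOH-fed genotypes, all higher.

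Most markers of sinusoidal endothelial cells were called higher with ethanol in both genotypes. With ethanol 4 of 6 were called higher in WT mice (median 0.50) and 5 of 6 in Apoe KO mice (median 1.01), among them Kdr at 0.80 (SE 0.13, adjusted p = 0.00181) in WT and Lyve1 at 1.52 (SE 0.22, adjusted p = 0.000376) in Apoe KO mice. Between pair-fed genotypes 1 was called, Clec4g at -0.66 (SE 0.11, adjusted p = 0.00998), and between EtOH-fed genotypes 0 of 6 in limma, with 0 at an unadjusted p under 0.05 and a median of 0.02. Their summed level was 6006 to 6884 units in pair-fed WT, 4325 to 6068 in pair-fed Apoe KO, 7515 to 10896 in EtOH-fed WT and 6939 to 11582 in EtOH-fed Apoe KO mice. Of 6 hepatocyte markers, Cps1 rose with ethanol in WT (1.12) and Apoe KO mice (0.82), and Fgb fell in Apoe KO mice by 0.48. Between genotypes 0 were called on either diet in limma, with 1 on each diet at an unadjusted p under 0.05. Of all 15052 genes, 2991 pair-fed and 2845 EtOH-fed passed that unadjusted threshold. Counts of these lists were the same without EtOH-fed Apoe KO mouse 1.

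Within groups, class II chains rose and fell together from mouse to mouse. After the group means were taken out, the members most like the mean of H2-Aa, H2-Ab1, H2-Eb1 and Cd74 over the 18 mice, those 4 aside, were H2-DMb1 (r = 0.811), Ciita (r = 0.793) and H2-DMa (r = 0.705). Class I members spread widely on this measure, from H2-Q10 (r = -0.361) and H2-K1 (r = 0.0308) over H2-D1 (r = 0.216) to B2m (r = 0.571), H2-Q2 (r = 0.603) and H2-Q6 (r = 0.687), and the last 3 exceeded the class II genes H2-DMb2 (r = 0.422) and H2-Ob (r = 0.165). Ifi30 had an r of 0.359. Of all genes outside the set, Anxa2 (r = 0.943), Efnb2 (0.917), S100a11 (0.915), Thbs3 (0.908) and the dendritic cell and macrophage integrin gene Itgax (0.903) had the highest values. The class I mean of H2-K1, H2-D1 and B2m was followed most closely by Apol9b (0.902) and Apol9a (0.901), then Trafd1 (0.848), Adss1 (0.835) and Afmid (0.829), and among members by H2-T23 (0.846), H2-T22 (0.797) and Tap2 (0.747). Over the 17 mice other than EtOH-fed Apoe KO mouse 1, r with the class II mean was 0.835 for H2-DMb1, 0.808 for Ciita, 0.721 for H2-DMa and 0.928 for Anxa2, and that of H2-D1 moved to 0.510, while with the class I mean Apol9a had 0.906 and H2-T23 0.826. These correlations describe 18 libraries whose depth differs from mouse to mouse, and no test was made of them. Mice without whole-read steps had a lower class II mean than the others of their group. In pair-fed Apoe KO mice it was 9.66 and 10.02 against 10.08 to 10.70. In EtOH-fed WT mice it was 9.87 to 10.16 against 10.43, and in EtOH-fed Apoe KO mice 10.54 against 10.92 to 11.98. The part of depth in the class II differences was not tested.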

How the data were processed

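Liver RNA of 18 mice was sequenced, 1 library per mouse, and groups were taken from the sample labels. Per the labels and the study's methods, the authors extracted RNA with TRIzol, checked reads with FastQC, trimmed them with Trimmomatic, aligned them with HISAT2 to GRCm38, and counted them with SAMtools and featureCounts before DESeq2, with versions not given in the sources used here. The deposited table gives each mouse a signal per gene, which is the read count after the authors scaled the libraries to almost equal totals and rounded. How they were scaled is not given in the sources used here. Columns of fold changes and p-values from the authors' own comparison were not used. The smallest gene mean listed is 12.1, so genes with lower means are not in it. It has 15247 lines, of which 195 repeat a gene with identical values (56 genes), and 15052 genes were kept, each once. H2-Q7 has 4 lines, which carry the symbols H2-Q7 and H2-Q9.

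A test of raw counts had been planned first, but scaled values are not counts, so the planned second choice was used: limma 3.58.1 (R 4.3.3) with a mean-variance trend on log2(value + 1), no filter on low values beyond the table's own, and Benjamini-Hochberg adjustment over all 15052 genes. A fold change on this scale understates the change of genes with low values. Each pairwise comparison was fitted on its 2 groups and the interaction on all 18 mice. Tables were handled with Python 3.11.15, pandas 2.3.3 and matplotlib 3.10.9.

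Estimated reads on genes ran from 5600000 to 29100000 in the 11 mice where low values step in whole reads, and are unknown for the other 7. Precision at low values therefore differs between mice and between groups, and the fits did not adjust for depth beyond the scaling. Class II levels within groups also differed with these steps, as given with the correlations above. A value that stepped within 0.5 units of a multiple was taken as a whole read.

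The 40 genes and the other gene lists were chosen with earlier results of these data known. Genes named with values are the leading members by role, every other member called in any comparison, and at most 3 called genes with the lowest adjusted p of each other list, with some further genes named as counts required. Cxcl9, Igtp, Gbp3, Usp18 and other list genes were so chosen. Ighm, Cd86, Lgmn, Clec4f and Ctss were followed over comparisons in which they were called. Alternatives were size factors by median of ratios, a mean of at least 50, a pseudocount of 0.1, a fit of all 4 groups, the replicate number as a block, array quality weights, and leaving out each mouse. List counts, sums and correlations without EtOH-fed Apoe KO mouse 1, and the B cell sum without Ighm, were added after the values were seen. Nothing in the labels says whether mice of a group shared a cage or litter. Promoter windows of 250 bases came from RefSeq (GRCm38.p6), and gene positions from GENCODE M21.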

Additional observations from a re-analysis of the deposited data

Results flagged for a closer look

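In 160 groups of values (40 genes in 4 groups of mice), the extreme mouse was compared with its group by Dixon's ratio of its gap to the whole range. The ratio passed its critical value in 10 groups, where chance alone gives about 1 in 20, or 8. B2m was lowest in pair-fed Apoe KO mouse 2, at 46849 units against 57843 to 59737 in the other mice of the group (ratio 0.867). H2-Q2 was highest in pair-fed Apoe KO mouse 1, at 80 units against 33 to 40 in the other mice of the group (ratio 0.784). H2-Q7 was lowest in EtOH-fed Apoe KO mouse 2, at 2368 units against 3072 to 3161 in the other mice of the group (ratio 0.901). H2-T22 was lowest in EtOH-fed Apoe KO mouse 2, at 3762 units against 5113 to 5264 in the other mice of the group (ratio 0.913). H2-T24 was lowest in EtOH-fed WT mouse 1, at 95 units against 131 to 140 in the other mice of the group (ratio 0.828). H2-Ob was highest in pair-fed WT mouse 4, at 158 units against 52 to 58 in the other mice of the group (ratio 0.902). Psmb10 was lowest in pair-fed Apoe KO mouse 2, at 1537 units against 2117 to 2303 in the other mice of the group (ratio 0.792). Psmb10 was highest in EtOH-fed WT mouse 5, at 1408 units against 1108 to 1185 in the other mice of the group (ratio 0.72). Psme1 was lowest in pair-fed Apoe KO mouse 2, at 2365 units against 3254 to 3409 in the other mice of the group (ratio 0.873). Tap2 was lowest in pair-fed WT mouse 3, at 604 units against 668 to 679 in the other mice of the group (ratio 0.86). Pair-fed Apoe KO mouse 2 accounted for 3 of the 10 and EtOH-fed Apoe KO mouse 2 for 2.

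The ethanol response differed between genotypes, by the interaction term of limma with an adjusted p under 0.05, for 9 of the 40 genes. The differences, Apoe KO minus WT on the log2 scale, were those of H2-Q1 (0.99), Cd74 (1.77), H2-Aa (1.78), H2-Ab1 (1.64), H2-DMa (1.87), H2-DMb1 (1.70), H2-DMb2 (1.75), H2-Eb1 (1.83) and Ifi30 (1.03). All 9 are more positive in Apoe KO mice, and their adjusted p are given with the interaction above.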

How the results depend on the processing

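The 55 results recomputed were those of a gene in a comparison that was called in the main fit or with an alternative, leaving out mice aside. Being chosen for a call, they were unlikely to change direction, and none did. With median-of-ratios size factors 51 kept their side of the threshold, with a pseudocount of 0.1 54, with array quality weights 47, and with the fit of all 4 groups 41 of the 46 that it gives. A mean of at least 50 left 46 of 47, and the replicate number as a block 42 of 55, with 8 calls lost and 5 gained. Between pair-fed genotypes 0 of the 40 genes were called, against 1 with size factors, 1 with a mean of at least 50 and 1 with array quality weights. Calls lost with size factors were those of H2-DMb2 for ethanol in Apoe KO mice and of H2-Q1 and Ifi30 for the interaction.

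Correlations between same-numbered mice ran from -0.217 to 0.230. Between EtOH-fed genotypes 3 of 4 pairs were over 0.1 (mean of other pairs -0.0327), and in the other comparisons at most 1 of 4. Every pair had to be over 0.1 and nothing in the labels pairs mice, so the numbers are not taken as a pairing. With the replicate number as a block the counts of called genes were 13, 10, 4, 8 and 6 for ethanol in WT, ethanol in Apoe KO, pair-fed genotypes, EtOH-fed genotypes and the interaction, against 15, 13, 0, 7 and 9 without it.

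Leaving out each mouse in turn gave 9 to 15 called genes for ethanol in WT (without pair-fed WT mouse 4 at the lowest), 7 to 12 for ethanol in Apoe KO (EtOH-fed Apoe KO mouse 5), 0 to 5 between pair-fed genotypes (pair-fed WT mouse 3 at the highest), 4 to 7 between EtOH-fed genotypes and 6 to 10 for the interaction. The class II minus class I median stayed between -0.73 and -0.59, 0.70 and 1.12, -0.71 and -0.37, 0.63 and 1.09, and 1.40 and 1.76 in the same order. In these fits 103 of 576 values lost their call and 10 gained one. Shares of all genes are given only for the fits without EtOH-fed Apoe KO mouse 1. Depth limits genes of low values most, since 1 read is worth up to 5.77 units.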
